A study of Mus musculus with 30 samples.

Results

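The 10 genes described here are C1qa, C1qb, C1qc, Tyrobp, Fcer1g, Csf1r, Adgre1, Ms4a7, Cd68 and Ctss, a set of genes that tissue macrophages express strongly. They were listed by name, with earlier results of these data known, and are 10 of the 12998 genes tested and of the 18193 genes with a probe set on the array. Macrophages are phagocytes that live in every tissue, where they take up dying cells and immune complexes, digest them in lysosomes and present fragments to T cells. They depend on the receptor for colony stimulating factor, signal through small adaptor proteins that carry an activation motif, and are the main source of complement C1q in tissue. Several of these genes are also active in other white blood cells: Tyrobp and Fcer1g in NK cells and granulocytes, and Ctss in B cells and dendritic cells.

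The samples were whole salivary glands of female NOD.H-2h4 mice, a NOD-derived strain in which white blood cells enter the thyroid and the salivary glands with age. Each mouse was injected once into the peritoneum, at 4 weeks of age, with 20 mg/kg of either anti-CD40L, an antibody against the T cell ligand that activates CD40 on B cells, dendritic cells and macrophages, or human IgG1, its isotype control. No uninjected mice were among the arrays, so both arms carry an injected antibody. The 6 groups were anti-CD40L at week 8, 16 and 24 and control IgG at week 8, 16 and 24, with 5 arrays each, which the labels call biological replicates. RNA was measured on 30 Affymetrix Mouse Genome 430 2.0 arrays, whose number limits the precision, and values are on the log2 scale of the deposited table. The clone, the pooling of animals and the glands taken are not given in the sources used here. Since the labels do not say how the replicates were made, the p-values measure the spread between these samples.

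The defining macrophage genes were all present in the tissue: the lowest value of any of them on any array was 5.57, and the array medians over all probe sets lay between 5.49 and 5.54. Some arrays stood apart from the rest. The median correlation with the other arrays was more than 3 median absolute deviations under the median array on 3 arrays, which were control week 8 replicates 3 and 4 and control week 24 replicate 1. Amy1, an amylase of parotid tissue, ranged from 6.58 to 13.7 over the 30 arrays. In anti-CD40L arrays it ran from 13.2 to 13.7 at week 8, from 7.34 to 12.4 at week 16 and from 7.34 to 13.4 at week 24. In control arrays it ran from 6.58 to 13.6, from 7.27 to 13.5 and from 7.01 to 13.6 at these weeks. The 3' minus 5' difference, taken on the log2 scale from control probe sets of Gapdh and Actb, which rises as RNA or its labelling is less complete, averaged 0.37 ± 0.10 in anti-CD40L arrays and 0.57 ± 0.20 in control arrays at week 8 (SD, n = 5 each). At week 16 it averaged 0.26 ± 0.05 in anti-CD40L arrays and 0.29 ± 0.07 in control arrays, and at week 24 it averaged 0.20 ± 0.04 in anti-CD40L arrays and 0.41 ± 0.12 in control arrays (SD, n = 5 each).

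In the treated glands, levels of 4 of the 10 genes fell relative to control IgG when the 3 weeks were averaged. These were Tyrobp, Ms4a7, Ctss and Adgre1, and of all genes tested 5.95% fell in this comparison. The log2 difference was -0.72 ± 0.14 for Tyrobp (SE, adjusted p = 0.00369), -0.59 ± 0.17 for Ms4a7 (adjusted p = 0.0233), -0.46 ± 0.13 for Ctss (adjusted p = 0.0252) and -0.25 ± 0.09 for Adgre1 (adjusted p = 0.0472). The 3 chains of C1q, Fcer1g, Csf1r and Cd68 did not pass the threshold of an adjusted p of 0.05. The median log2 difference over the 10 genes was -0.25, against 0.02 over all genes tested. In whole tissue, fewer cells of a type and less RNA per cell cannot be told apart. In the same comparison 7 of 8 B cell genes, 4 of 6 T cell genes and 6 of 8 NK cell genes also fell. When the 3' minus 5' difference was added to the model, 0 of the 4 falls passed, and Tyrobp had a log2 difference of -0.49 ± 0.17 (SE, adjusted p = 0.222). Tyrobp alone passed without the 3 arrays of low correlation, and likewise without control week 16 replicates 1 and 4, which were the highest arrays of that week.

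**Figure D1:**
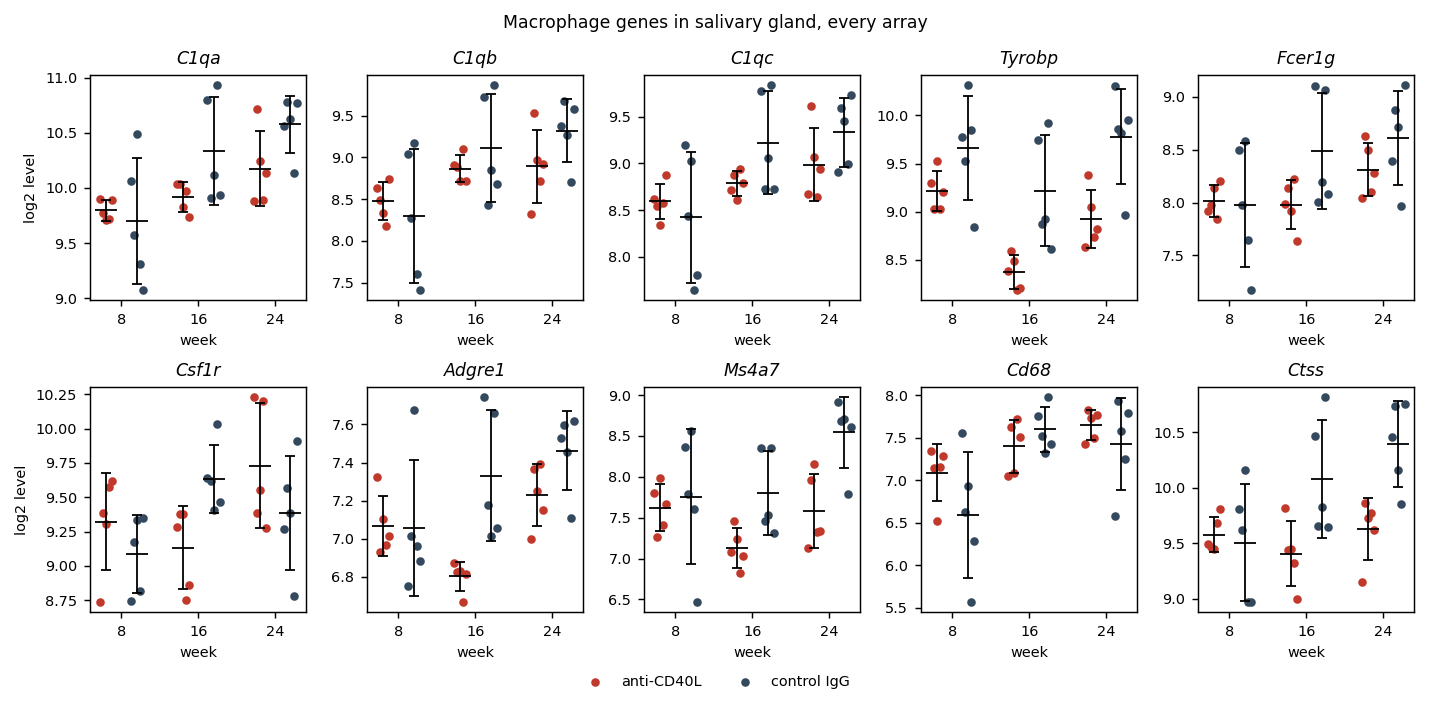
Log2 level (vertical axes) of the 10 macrophage genes in each of the 30 arrays by week, with anti-CD40L arrays in red left of control IgG arrays in dark blue, and the mean and SD of 5 arrays drawn beside the points. Tyrobp in anti-CD40L glands lay between 8.19 and 8.59 at week 16, below all 5 control IgG arrays.

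C1qa, C1qb and C1qc encode the A, B and C chains of C1q, which binds antibody bound to antigen and starts the classical complement pathway. They are neighbours on chromosome 4 with no other gene between them in the RefSeq table of build GRCm38.p6. Promoters of C1qb and C1qc are shown because the 2 genes moved together over the arrays (r = 0.927 and rho = 0.886 over deviations from the group means on 30 arrays, permutation p = 1e-05 for both, and r = 0.915 without 2 arrays). Each runs from 250 bases before to 50 bases after the start of the gene in RefSeq (GRCm38.p6, minus strand), at chr4:136886151-136886450 for C1qb and chr4:136892865-136893164 for C1qc. Capitals mark GAGGAA, the core letters bound by PU.1, a factor of myeloid cells, searched on both strands, so that TTCCTC is the same motif on the opposite strand.
C1qb: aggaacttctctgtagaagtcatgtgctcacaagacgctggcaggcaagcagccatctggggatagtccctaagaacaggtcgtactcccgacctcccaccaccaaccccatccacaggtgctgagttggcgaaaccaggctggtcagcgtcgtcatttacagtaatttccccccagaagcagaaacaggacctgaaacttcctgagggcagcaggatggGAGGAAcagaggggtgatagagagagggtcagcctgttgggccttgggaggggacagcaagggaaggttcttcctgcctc
C1qc: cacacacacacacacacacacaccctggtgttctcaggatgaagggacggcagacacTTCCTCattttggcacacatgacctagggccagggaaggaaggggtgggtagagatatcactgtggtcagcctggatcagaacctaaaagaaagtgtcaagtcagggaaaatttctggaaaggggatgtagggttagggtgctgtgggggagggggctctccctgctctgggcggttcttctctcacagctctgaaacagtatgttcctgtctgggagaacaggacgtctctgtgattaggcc
The match lies 30 bases before the start in C1qb and 193 bases before it in C1qc. The table held 7 promoters of 6 of the 10 genes, and 5 of the 7 had this motif, as did 28.3% of all 32851 promoters in the table. A match describes letters and is not a measured binding site.

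In control glands the C1q chains rose with time. C1qa had 10.57, 10.78, 10.63, 10.14 and 10.77 in control week 24 arrays, against 10.06, 9.57, 10.49, 9.31 and 9.08 in control week 8 arrays. The groups overlapped only through control week 8 replicate 3 at 10.49 and control week 24 replicate 4 at 10.14. The log2 difference was 0.87 ± 0.22 for C1qa (SE, adjusted p = 0.0103), 1.02 ± 0.29 for C1qb (adjusted p = 0.0242) and 0.91 ± 0.26 for C1qc (adjusted p = 0.0222). At week 16 all 3 chains were also higher than at week 8, by 0.64 ± 0.22, 0.81 ± 0.29 and 0.80 ± 0.26 (SE, adjusted p = 0.0187, 0.0264 and 0.0142). With only the groups compared in the model, none of these 6 rises passed (adjusted p = 0.0734 to 0.174), and with the 3' minus 5' difference in it C1qa at week 24 alone did (adjusted p = 0.0345). With the median over its 3 probe sets, C1qb had 0.65 ± 0.29 at week 24 and 0.70 ± 0.29 at week 16 (adjusted p = 0.138 and 0.0534). Leaving out control week 8 replicate 4 ended every one of the 6 calls except that of C1qa at week 24.

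In anti-CD40L glands the C1q chains did not pass the test at either later week in the main model. With only the groups compared in the model, C1qb alone passed, at week 16 over week 8 (0.39 ± 0.12, SE, adjusted p = 0.0253). C1qa had 9.88, 10.72, 10.25, 9.90 and 10.14 in anti-CD40L week 24 arrays, against 9.90, 9.77, 9.71, 9.72 and 9.89 in anti-CD40L week 8 arrays. Its log2 difference was 0.38 ± 0.22 (SE, adjusted p = 0.192), with an interval of -0.06 to 0.82. For C1qb and C1qc it was 0.41 ± 0.29 and 0.40 ± 0.26 (adjusted p = 0.295 and 0.257). Between treatments at week 24, C1qa, C1qb and C1qc had log2 differences of -0.40 ± 0.22, -0.43 ± 0.29 and -0.35 ± 0.26 (SE, adjusted p = 0.214, 0.337 and 0.377). The change of the treatment effect over time was tested itself, and none of the 3 chains passed in it.

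Tyrobp encodes the adaptor DAP12, which carries signals of TREM2, NK cell receptors and other surface receptors to the kinase Syk. At week 8 Tyrobp had 9.29, 9.03, 9.53, 9.03 and 9.20 in anti-CD40L arrays, against 9.77, 9.52, 10.32, 9.85 and 8.84 in control arrays. Here control replicate 5 was the lowest of the 10 arrays, and the log2 difference was -0.44 ± 0.25 (adjusted p = 0.384).

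At week 16 it had 8.39, 8.59, 8.49, 8.19 and 8.20 in anti-CD40L arrays, against 9.74, 8.88, 8.93, 9.93 and 8.62 in control arrays. All 5 anti-CD40L arrays were below all 5 control arrays, and the log2 difference of -0.85 ± 0.25 had an adjusted p of 0.0708. At week 24 it had 8.64, 9.39, 9.04, 8.73 and 8.82 in anti-CD40L arrays, against 10.31, 9.86, 9.82, 8.96 and 9.95 in control arrays. Of the anti-CD40L arrays 3 were below every control array, and the overlap came from control replicate 4 at 8.96. The level in anti-CD40L glands fell to 0.553 times that in control glands at week 24, a log2 difference of -0.85 ± 0.25 (SE, adjusted p = 0.0326).

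Over the weeks, Tyrobp fell within anti-CD40L glands at week 16 relative to week 8, by 0.85 ± 0.25 on the log2 scale (SE, adjusted p = 0.0108), and all 5 week 16 arrays lay below all 5 week 8 arrays. In control glands its log2 difference was -0.44 ± 0.25 at week 16 and 0.12 ± 0.25 at week 24, both against week 8 (adjusted p = 0.138 and 0.783). The log2 level of Tyrobp minus that of C1qa on the same array, which follows only how the 2 probe sets moved against each other, ran from -0.74 to -0.18 in anti-CD40L arrays and from -0.29 to 0.53 in control arrays at week 8. The groups overlapped there, with means of -0.58 in anti-CD40L arrays and -0.04 in control arrays. At week 16 it ran from -1.78 to -1.34 in anti-CD40L arrays and from -1.32 to -1.01 in control arrays, with no overlap. At week 24 it ran from -1.33 to -1.16 in anti-CD40L arrays and from -1.18 to -0.26 in control arrays, where the groups met at their edge. The fall of Tyrobp within the anti-CD40L arm was lost when the Amy1 level was added to the model (adjusted p = 0.0723).

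Fcer1g encodes the shared gamma chain of Fc receptors, the other adaptor with an activation motif in the set. Its log2 difference between treatments was 0.04 at week 8, -0.51 at week 16 and -0.30 at week 24, and none passed (adjusted p = 0.955, 0.322 and 0.412). At week 24 it ran from 8.05 to 8.63 in anti-CD40L arrays and from 7.97 to 9.11 in control arrays, so that the anti-CD40L range lay inside the control range.

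Csf1r encodes the receptor for the macrophage growth factors CSF1 and IL-34. Its log2 difference between treatments was 0.24 ± 0.21 at week 8 (SE, adjusted p = 0.6). At week 16 Csf1r had 9.28, 9.38, 9.38, 8.75 and 8.86 in anti-CD40L arrays, against 9.64, 9.62, 9.41, 10.03 and 9.46 in control arrays. The groups did not overlap, and the log2 difference of -0.50 ± 0.21 had an adjusted p of 0.251.

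At week 24 Csf1r had 10.23, 9.39, 9.56, 10.20 and 9.28 in anti-CD40L arrays, against 9.27, 9.57, 9.38, 8.78 and 9.91 in control arrays. The log2 difference was 0.35 ± 0.21 (SE, adjusted p = 0.269), and the highest 2 of the 10 arrays were anti-CD40L arrays. The change of the treatment effect between weeks 16 and 24 was 0.85 ± 0.30 (SE, adjusted p = 0.138). In control glands Csf1r rose at week 16 over week 8 by 0.55 ± 0.21 (adjusted p = 0.0349), with no overlap of the groups, a pattern of 16.4% of all genes. This rise lost its call when any of 5 of 10 arrays was left out (adjusted p up to 0.0963). It also lost it in 7 of 12 other settings (adjusted p up to 0.376). The array holds 3 probe sets for Csf1r, of which the one with the highest mean was used. The treatment differences of the other 2 were 0.33 and 0.10 at week 8, -0.50 and -0.30 at week 16, and 0.30 and 0.05 at week 24. The 3 probe sets of Csf1r had the same sign of the treatment difference at each week.

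Adgre1 encodes an adhesion receptor whose protein is a standard stain for mouse macrophages. Its log2 difference between treatments was 0.01 ± 0.15 at week 8 (SE, adjusted p = 0.979). At week 16 it had 6.87, 6.82, 6.83, 6.67 and 6.82 in anti-CD40L arrays, against 7.74, 7.18, 7.02, 7.66 and 7.06 in control arrays. The groups did not overlap, and the log2 difference of -0.53 ± 0.15 had an adjusted p of 0.0593. With Tyrobp and Csf1r, it was 1 of 3 genes whose anti-CD40L arrays all lay below all control arrays at week 16, a pattern that 3.02% of all genes tested showed.

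At week 24 the Adgre1 values were 6.998, 7.37, 7.25, 7.39 and 7.15 in anti-CD40L arrays and 7.53, 7.60, 7.46, 7.11 and 7.62 in control arrays. The log2 difference was -0.23 ± 0.15 (SE, adjusted p = 0.302). Its averaged fall of 0.25 on the log2 scale was the smallest of the 4 that passed and lost its call when any of 21 of the 30 arrays was left out, with an adjusted p of at most 0.0853.

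Ms4a7 encodes a membrane protein of the tetraspan MS4A family that marks macrophages. Its log2 difference between treatments was -0.14 ± 0.29 at week 8 and -0.68 ± 0.29 at week 16 (SE, adjusted p = 0.854 and 0.273). It had 7.13, 7.97, 8.16, 7.33 and 7.34 in anti-CD40L week 24 arrays, against 8.91, 8.69, 8.71, 7.80 and 8.61 in control week 24 arrays. Control replicate 4 lay below 2 of the anti-CD40L arrays, and the other 4 control arrays lay above all 5. The level in anti-CD40L glands fell to 0.514 times that in control glands, a log2 difference of -0.96 ± 0.29 (SE, adjusted p = 0.0402). A second Ms4a7 probe set, which was above the array's median on 0 arrays, was not used. With the median over both probe sets the log2 difference at week 24 was -0.48 ± 0.16 (SE, adjusted p = 0.0535).

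Cd68 encodes a lysosomal membrane glycoprotein of phagocytes. It rose in control glands at both later weeks. At week 16 it had 7.76, 7.52, 7.32, 7.98 and 7.43 in control arrays, against 7.55, 6.63, 6.93, 5.57 and 6.28 in control week 8 arrays. Only control week 8 replicate 1 reached the week 16 range, and the log2 difference was 1.01 ± 0.26 (SE, adjusted p = 0.00318).

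At week 24 the Cd68 level in control glands was higher than at week 8 by 0.83 ± 0.26 (SE, adjusted p = 0.0352), with control week 24 replicate 1 at 6.58 as its lowest array. In anti-CD40L glands all 5 week 24 arrays, from 7.43 to 7.83, lay above all 5 week 8 arrays, from 6.52 to 7.35. That lack of overlap upward was shown by 12.4% of all genes tested, and the log2 difference of 0.56 ± 0.26 had an adjusted p of 0.11. Between treatments Cd68 had log2 differences of 0.50 ± 0.26, -0.20 ± 0.26 and 0.23 ± 0.26 at weeks 8, 16 and 24 (SE, adjusted p = 0.351, 0.812 and 0.582). With the 3' minus 5' difference in the model, the rise of Cd68 at week 16 was 0.29 ± 0.26 (adjusted p = 0.535). Its control rise at week 24 lost its call when any of 6 of 10 arrays was left out (adjusted p up to 0.154). That call was also lost with the 3' minus 5' difference in the model and with only the groups compared (adjusted p up to 0.298).

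Ctss encodes cathepsin S, a lysosomal protease that trims the invariant chain from MHC class II. Promoters of Ctss and Ms4a7 are shown as those of 2 genes that fell with treatment. They are at chr3:95526536-95526835 on the plus strand for Ctss and chr19:11336097-11336396 on the minus strand for Ms4a7, from RefSeq (GRCm38.p6). Capitals mark GAGGAA or its complement TTCCTC and, in Ctss, a match to the interferon-stimulated response element, searched as GAAA, any 2 bases and GAAA.
Ctss: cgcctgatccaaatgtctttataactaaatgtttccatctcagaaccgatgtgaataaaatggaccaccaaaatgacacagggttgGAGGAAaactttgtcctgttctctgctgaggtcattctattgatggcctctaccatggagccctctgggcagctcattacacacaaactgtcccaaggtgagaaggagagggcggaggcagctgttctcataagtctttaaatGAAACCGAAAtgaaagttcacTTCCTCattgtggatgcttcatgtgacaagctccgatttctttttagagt
Ms4a7: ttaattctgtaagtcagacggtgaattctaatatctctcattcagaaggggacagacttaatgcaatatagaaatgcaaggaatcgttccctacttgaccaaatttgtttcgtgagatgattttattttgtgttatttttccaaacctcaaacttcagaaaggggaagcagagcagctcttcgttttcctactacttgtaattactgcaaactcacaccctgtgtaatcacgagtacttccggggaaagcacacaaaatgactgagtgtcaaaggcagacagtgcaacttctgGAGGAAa
The element in Ctss, GAAACCGAAA, lies 21 bases before the start, with GAGGAA motifs 164 bases before the start and at it, and 3.44% of all promoters hold a match to it on either strand. It was in 1 of the 7 promoters of these genes that were searched. Ms4a7 has a second start in the table, whose promoter held neither motif.

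At week 8 the log2 difference of Ctss between treatments was 0.07 ± 0.23 (SE, adjusted p = 0.908). At week 16 it had 9.82, 9.45, 9.45, 9.33 and 9.001 in anti-CD40L arrays, against 10.47, 9.65, 9.83, 10.82 and 9.65 in control arrays. Here anti-CD40L replicate 1 overlapped the controls, and the log2 difference of -0.67 ± 0.23 had an adjusted p of 0.137.

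Ctss had 9.15, 9.87, 9.73, 9.77 and 9.62 in anti-CD40L week 24 arrays, against 10.46, 10.74, 10.17, 9.86 and 10.76 in control week 24 arrays. Of the 5 anti-CD40L arrays 4 were below every control array, and the fifth exceeded only control replicate 4. The level in anti-CD40L glands fell to 0.588 times that in control glands, a log2 difference of -0.77 ± 0.23 (SE, adjusted p = 0.0385). Over time Ctss rose in control glands by 0.58 ± 0.23 at week 16 and 0.89 ± 0.23 at week 24, both against week 8 (adjusted p = 0.043 and 0.0139). In anti-CD40L glands the same log2 differences were -0.17 ± 0.23 and 0.05 ± 0.23 (adjusted p = 0.57 and 0.888). The control rise of Ctss at week 16 lost its call when any of 5 of 10 arrays was left out (adjusted p up to 0.156). It also lost it in 8 of 12 other settings (adjusted p up to 0.503). The control rise at week 24 lost its call for 2 of 10 arrays and in 2 of 12 settings.

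Counted over the set at each week, by limma, 0 of the 10 genes passed at week 8 and 0 had an unadjusted p under 0.05, where 0.0692% of all genes passed. The median log2 difference at week 8 was 0.08, against 0.01 over all genes. At week 16, 0 of the 10 genes passed and 6 had an unadjusted p under 0.05, where 1.88% of all genes tested passed in either direction. All 10 log2 differences lay below 0, from -0.85 to -0.20, with a median of -0.51 against 0.02 over all genes. Control replicates 1 and 4 were the highest 2 of the 10 arrays of that week in all 10 genes. Without both of them the median was -0.20, 9 of the 10 differences lay below 0, and that of C1qb was 0.21. The Amy1 level was 12.4 and 13.5 in control replicates 1 and 4, and 7.93, 8.95 and 7.27 in control replicates 2, 3 and 5. In anti-CD40L week 16 replicates 2 and 4 it was also high, at 12.4 and 12.2.

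At week 24, 3 of the 10 genes fell with anti-CD40L (Tyrobp, Ms4a7 and Ctss), where 3.49% of all genes tested fell. The median log2 difference was -0.37 over the 10 genes and 0.03 over all genes tested, and 8 of the 10 lay below 0. The 3 falls did not all hold when 1 array was left out: the count was 0 without control replicate 1, 3 or 5 and without anti-CD40L replicate 1, 4 or 5, with an adjusted p of up to 0.143, and 0 without the 3 arrays of low correlation. With each week 24 array left out in turn, the log2 difference stayed between -1.06 and -0.72 for Tyrobp, between -1.15 and -0.85 for Ms4a7 and between -0.90 and -0.65 for Ctss. With the 3' minus 5' difference in the model 0 genes of the set passed, the log2 differences of Tyrobp, Ms4a7 and Ctss being -0.54, -0.77 and -0.86 (adjusted p = 0.487, 0.416 and 0.201).

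**Figure D2:**
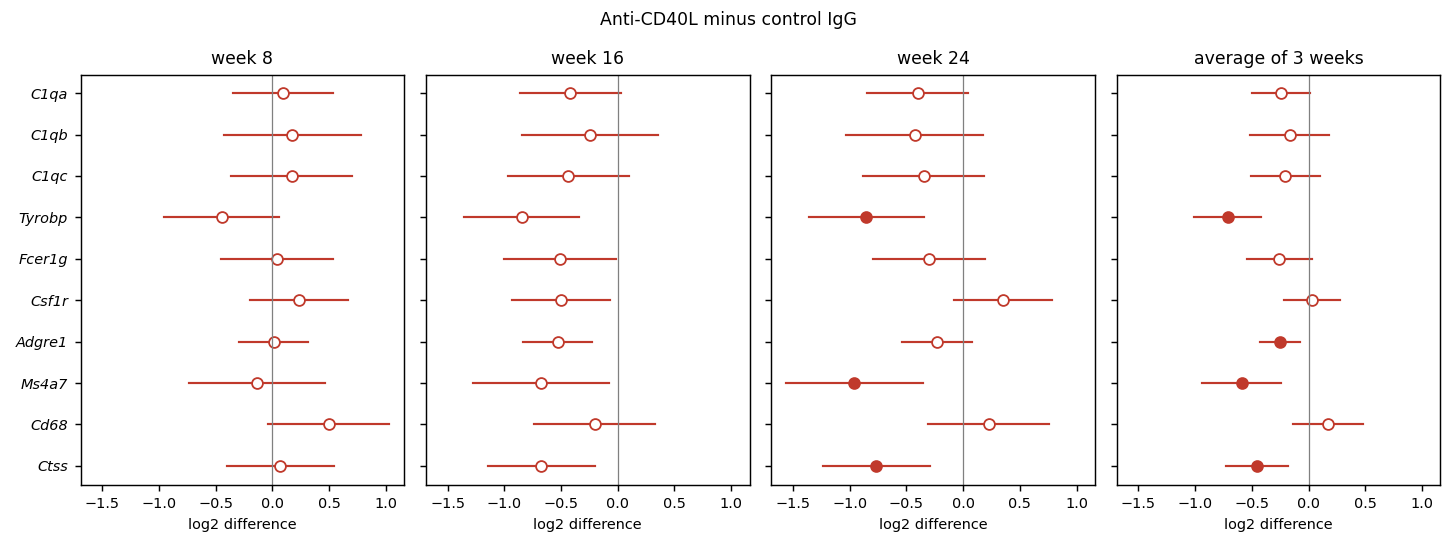
Log2 difference, anti-CD40L minus control IgG, of the 10 macrophage genes at weeks 8, 16 and 24 and on average, with 95% intervals, where filled points have an adjusted p under 0.05. The points that passed are Tyrobp, Ms4a7 and Ctss at week 24 and these 3 with Adgre1 on average, all below 0.

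Whether the treatment effect itself changed between weeks was tested for each gene, and by limma 0 of the 10 passed in any of the 3 comparisons. From week 8 to week 16 all 10 changes lay below 0, from -0.75 to -0.40, and 3 had an unadjusted p under 0.05, where 0.146% of all genes passed. From week 16 to week 24 the median change was 0.05, and 1.16% of all genes passed. Here 1 of the 10 and 2301 of all genes tested had an unadjusted p under 0.05. From week 8 to week 24 the median change was -0.45, and 0.00769% of all genes passed. Of the 10 genes 1, Ctss, had an unadjusted p under 0.05, as had 759 of all genes tested. The difference between weeks in which genes passed is thus not shown by a test of the change itself.

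Within control glands 5 of the 10 genes rose at week 24 over week 8 (C1qa, C1qb, C1qc, Cd68 and Ctss), where 8.49% of all genes rose. All 10 differences lay above 0, with a median of 0.81 against 0.05 over all genes. At week 16 over week 8, 6 of the 10 rose (the same 5 and Csf1r), where 28.4% of all genes rose. Csf1r alone had no overlap of these groups, a pattern of 16.4% of all genes. Between weeks 24 and 16, by limma, 0 of the 10 passed and 2 had an unadjusted p under 0.05, where 12.4% of all genes passed in either direction. The count at week 24 was 1 without control week 8 replicate 4 or control week 24 replicate 2, 2 without control week 8 replicate 5 or control week 24 replicate 5, and 8 without control week 8 replicate 3 or control week 24 replicate 4. The count at week 16 was 1 without control week 8 replicate 4 or control week 16 replicate 1 and 3 without control week 16 replicate 4. With the 3' minus 5' difference in the model the counts were 0 at week 16 and 1, C1qa, at week 24.

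Within anti-CD40L glands Tyrobp alone passed at week 16 over week 8, as a fall, where 12.5% of all genes fell. Adgre1 also had all week 16 arrays below all week 8 arrays, which 8.09% of all genes had, with a log2 difference of -0.27 ± 0.15 (SE, adjusted p = 0.154). At week 24 over week 8, by limma, 0 of the 10 passed and 1 had an unadjusted p under 0.05, where 23.6% of all genes passed. The median was 0.34, against 0.09 over all genes. At week 24 over week 16, 0 passed, where 5.38% of all genes passed, and 3 of the 10 and 2501 of all genes tested had an unadjusted p under 0.05. All 10 of those differences lay above 0, with a median of 0.29. The comparisons over time share their week 8 arrays, and the treatment comparisons share the control arrays with those over time.

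**Figure D3:**
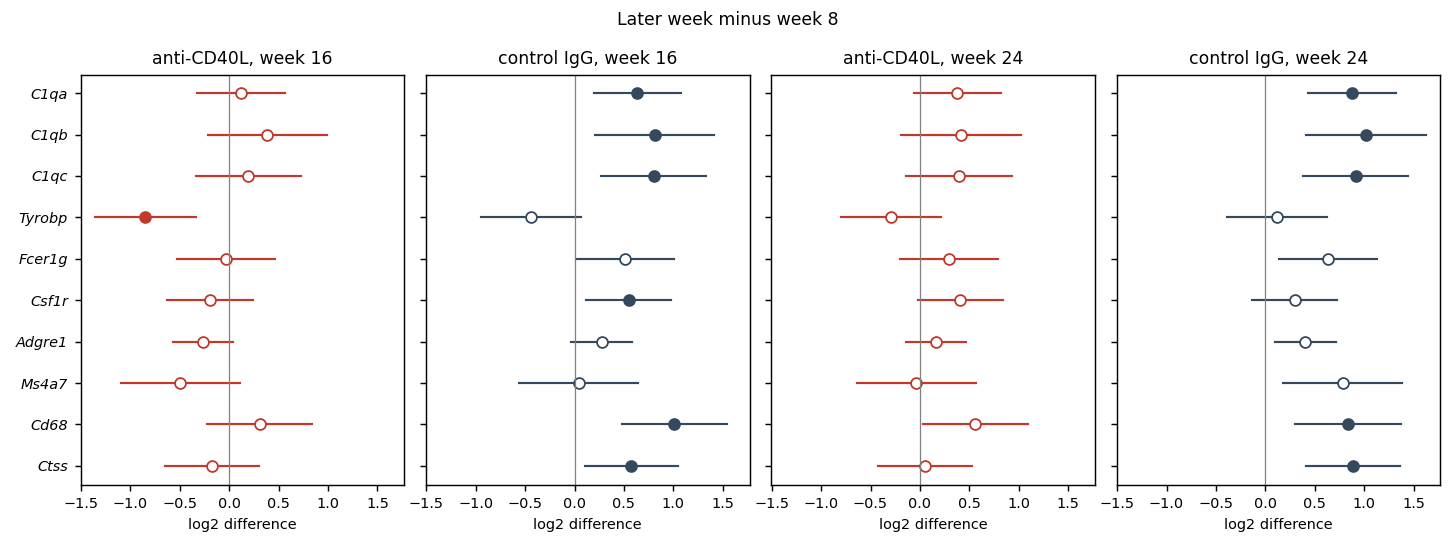
Log2 difference of week 16 or 24 over week 8 for the 10 macrophage genes in anti-CD40L glands (red) and control IgG glands (dark blue), with 95% intervals, where filled points have an adjusted p under 0.05. In control glands 6 genes rose at week 16 and 5 at week 24, while in anti-CD40L glands Tyrobp at week 16 is the filled point, below 0.

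The spread between the arrays of a group was larger in control glands for most of these genes at weeks 8 and 16. At week 8 the median SD over the 10 genes was 0.20 in anti-CD40L arrays and 0.58 in control arrays, and 9 of the 10 genes had the smaller SD in anti-CD40L arrays. At week 16 the median SD was 0.20 in anti-CD40L arrays and 0.52 in control arrays, with 8 of 10 smaller in anti-CD40L arrays. At week 24 it was 0.32 in anti-CD40L arrays and 0.40 in control arrays, with 5 of 10 smaller. The SD was smaller in anti-CD40L arrays for 65.5%, 46.7% and 78.6% of all genes tested at weeks 8, 16 and 24, and the difference in spread of these genes was not tested.

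Most of the 10 genes moved together from array to array within the groups. Over deviations from the 6 group means on 30 arrays, Pearson's r of the 45 pairs ran from 0.02 to 0.96 with a median of 0.71. In 32 pairs r had a permutation p under 0.05 after Benjamini-Hochberg adjustment over the 45, and in 34 pairs Spearman's rho did. C1qa and C1qb had r = 0.963 and rho = 0.953, with a permutation p of 1e-05 for both, the smallest that 100000 permutations can give (adjusted p = 5e-05), and r = 0.957 without the 2 arrays furthest from the median of C1qa. Tyrobp and Ms4a7 had r = 0.905 and rho = 0.901, with the same permutation p and adjusted p for both, and r = 0.870 without 2 such arrays. Tyrobp and Cd68 had r = 0.151 and rho = 0.314 (permutation p = 0.548 and 0.127, adjusted p = 0.616 and 0.154), and r = 0.0686 without 2 such arrays.

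The Csf1r probe set used had the lowest mean r with the other genes, 0.145, and all 32 pairs that passed by r were among the 36 pairs without it. The other 2 Csf1r probe sets had a mean r of 0.363 and 0.140 with the other genes, and r of 0.177 and 0.174 with the one used, so that the probe sets of this gene did not move together. Cd68 was next, with a mean r of 0.434, and the mean of the other 8 genes lay between 0.572 and 0.749. The arrays share their RNA and hybridization across genes, so that these correlations hold any array effect in common.

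**Figure D4:**
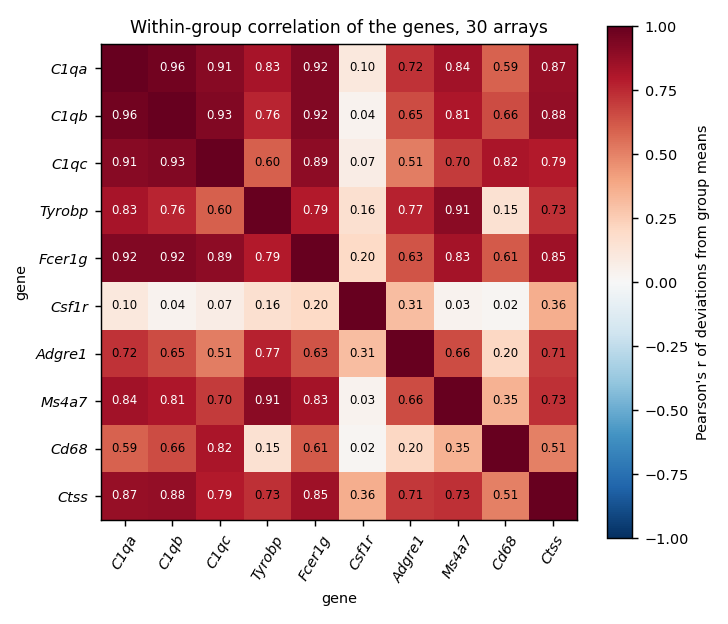
Pearson's r between each pair of the 10 macrophage genes (both axes), over deviations from the group means on 30 arrays, with colour from -1 (blue) to 1 (red). The row and column of the Csf1r probe set used are the palest, with a mean r of 0.145.

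The 10 other genes whose deviations were most like those of the set, by mean Pearson's r over the same 30 arrays, were Cd72 (0.741), C1s1 (0.734), Ly86 (0.729), Srgn (0.727), Cd48 (0.723), Gbp2 (0.721), Ptprc (0.716), Psmb8 (0.712), Nkg7 (0.712) and Psmb9 (0.711). They include a B cell surface receptor (Cd72), a complement protease that acts with C1q (C1s1), the pan-leukocyte phosphatase CD45 (Ptprc), a granule protein of cytotoxic cells (Nkg7) and 2 subunits of the immunoproteasome (Psmb8 and Psmb9). At week 24 Srgn, which encodes the granule proteoglycan serglycin, had a log2 difference of -1.22 (adjusted p = 0.00833). Ptprc had -2.00 (adjusted p = 0.0176), and C1s1 had -0.42 (adjusted p = 0.418).

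Of 24 other macrophage genes tested, 2 fell with anti-CD40L at week 24, where 3.49% of all genes fell. Cd53, a leukocyte tetraspanin, had a log2 difference of -1.81 ± 0.38 (SE, adjusted p = 0.00664), and Msr1, a scavenger receptor, one of -0.47 ± 0.13 (adjusted p = 0.0264). Their median log2 difference was -0.23. Averaged over the weeks 4 fell and 2 rose, where 5.95% of all genes fell and 9.82% rose. The largest falls were those of Cd53 at -0.98 ± 0.22 (adjusted p = 0.00737), Aif1 (the marker Iba1) at -0.79 ± 0.21 (adjusted p = 0.0154) and Mpeg1, a pore-forming protein of phagocytes, at -0.66 ± 0.18 (adjusted p = 0.0181). The 2 that rose were Cd163, a scavenger receptor for haemoglobin, at 0.48 ± 0.15 (adjusted p = 0.033), and Mertk, a receptor for uptake of dying cells, at 0.31 ± 0.09 (adjusted p = 0.0291). At weeks 8 and 16, by limma, 0 of the 24 passed, and 4 and 11 had an unadjusted p under 0.05.

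Of 17 genes listed for activation motif receptors and signalling around them, 3 fell at week 24, where 3.49% of all genes fell. Clec7a, the receptor dectin-1, had a log2 difference of -1.28 ± 0.32 (SE, adjusted p = 0.0159). Clec4n, the receptor dectin-2, had -0.89 ± 0.21 (adjusted p = 0.0142) and the kinase Btk had -0.52 ± 0.14 (adjusted p = 0.021). Of 9 genes of CSF1 receptor ligands, related growth factor receptors and transcription factors, 2 fell at that week. Csf2ra, of the CSF2 receptor, had -0.78 ± 0.19 (adjusted p = 0.0157) and the transcription factor Irf8 had -0.48 ± 0.12 (adjusted p = 0.0167). Averaged over the weeks, Clec7a (-0.78), the Fc receptor Fcgr4 (-0.47), Btk (-0.33), Csf2ra (-0.48) and Irf8 (-0.31) fell, with adjusted p of 0.00781 to 0.0362. Of 8 other genes listed around the classical complement pathway and of 13 lysosomal genes, by limma, 0 passed at week 24. Of the 8, 0 had an unadjusted p under 0.05, and of the 13, 2 did. At week 16, where 0.577% of all genes fell, 2 of the 13 lysosomal genes did, Cd74 (the invariant chain) with -1.54 ± 0.38 (adjusted p = 0.0357) and Ctsk with -0.66 ± 0.17 (adjusted p = 0.0371). In control glands 5 of the 8 genes of the complement list and 10 of the 24 other macrophage genes rose at week 24 over week 8. There 8.49% of all genes rose, and 1 of the 24, Cd84, fell. In anti-CD40L glands Calr, Lrp1, C1ra, Cd93 and C1s1 of the complement list also rose between these weeks, where 16.5% of all genes rose. Of the other macrophage genes, Apoe, Cd14, Clec10a, Cybb and Maf rose there, and Cd84, Siglec1 and Ccr2 fell.

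Markers of other white blood cells moved with treatment in the same glands. At week 8, by limma, 0 genes of the B, T and NK cell lists passed and 0 had an unadjusted p under 0.05. At week 16, 0 passed, and 3 of 8 B cell, 2 of 6 T cell and 5 of 8 NK cell genes had an unadjusted p under 0.05. The mean level of the NK cell list at week 16 ran from 5.19 to 5.72 in anti-CD40L arrays and from 5.71 to 6.94 in control arrays. At week 24, 3.49% of all genes tested fell. The B cell list, 7 of whose 8 tested genes fell, had a mean level of 5.39 to 5.69 in anti-CD40L arrays and 6.17 to 7.88 in control arrays. The T cell list, with 4 of 6 falling, ran from 5.32 to 6.15 in anti-CD40L arrays and from 6.11 to 7.87 in control arrays. The NK cell list, with 2 of 8 falling, ran from 5.59 to 6.32 in anti-CD40L arrays and from 5.92 to 7.09 in control arrays. These list counts come from the main model, which did not hold the 3' minus 5' difference. At that week the largest falls, on the log2 scale, were those of Ms4a1 (-3.70), Cd79b (-2.59) and Bank1 (-1.77) among B cell genes and of Cd3d (-2.31), Cd3g (-2.15) and Cd2 (-1.70) among T cell genes, with adjusted p of 0.000149 to 0.0165. The NK cell receptor genes Klrd1 and Klrk1 had log2 differences of -1.60 ± 0.51 and -0.81 ± 0.24 (SE, adjusted p = 0.046 and 0.0355).

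At week 24, 0 of 8 dendritic cell genes passed by limma and 1 had an unadjusted p under 0.05, and of 9 mast cell and granulocyte genes 1 fell, Prg2 with a log2 difference of -1.83 ± 0.22 (adjusted p = 6.03e-05). At week 16 Prg2 fell by 1.33 ± 0.22 (SE, adjusted p = 0.00101), and S100a8 and S100a9, genes of neutrophils, rose by 1.37 ± 0.34 and 1.11 ± 0.29 (adjusted p = 0.0357 and 0.0431), where 1.31% of all genes rose. Csf3r and Cxcr2 of the same list had log2 differences of -0.08 and 0.05 at week 16 (adjusted p = 0.851 and 0.93). At week 8 S100a8 and S100a9 had -0.60 and -0.43 (adjusted p = 0.394 and 0.468). Averaged over the weeks the largest falls were those of Ms4a1 (-1.68), Cd79b (-1.24) and Bank1 (-0.74) among B cell genes, Cd3g (-1.21), Cd3d (-1.17) and Cd2 (-0.93) among T cell genes and Klrd1 (-0.95), Ccl5 (-0.73) and Nkg7 (-0.71) among NK cell genes, with adjusted p of 0.000868 to 0.0301. Prg2 had -1.05 (adjusted p = 6.86e-06). Of the lists of gland and muscle cells, the acinar cell factor Bhlha15 rose at week 24 by 0.77 ± 0.19 (adjusted p = 0.0134) and on average by 0.36 (adjusted p = 0.0256), and Aqp5 rose on average by 0.26 (adjusted p = 0.0337). The muscle gene Myot rose at week 16 by 2.35 ± 0.36 (adjusted p = 0.000401) and on average by 0.97 (adjusted p = 0.00563). The other muscle genes tested, Acta1 and Ckm, had log2 differences of -0.15 and -0.11 at week 16 (adjusted p = 0.926 and 0.892).

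The levels of most of the 10 genes moved with those of these lists within the groups. Over deviations from the group means on the 30 arrays, 60 relations of the 10 genes with 6 list levels were computed. An adjusted p of r under 0.05, by permutation, was reached by 8 of the 10 genes with the NK cell list, 7 with the B cell list, 8 with the T cell list, 8 with the list of other macrophage genes, 5 with the dendritic cell list and 3 with the mast cell and granulocyte list. Tyrobp had r = 0.894 and rho = 0.858 with the NK cell list (permutation p = 1e-05 and 2e-05, adjusted p = 0.0002 and 0.0003) and r = 0.872 without the 2 arrays furthest from the median of the list. With the list of other macrophage genes it had r = 0.844 and rho = 0.785 (permutation p = 0.00011 and 0.00014, adjusted p = 0.000508 and 0.0007) and r = 0.784 without 2 such arrays. Adgre1 had r = 0.848 and rho = 0.800 with the NK cell list (permutation p = 0.00024 and 9e-05, adjusted p = 0.00096 and 0.00054) and r = 0.760 without 2 such arrays. The part of each cell type in the treatment differences of the 10 genes was not tested.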

How the data were processed

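Per the labels, 2 µg of total RNA of each gland sample was hybridized to 1 array. The values are log2 intensities as deposited by the authors, read from their range of 2.76 to 14.5, and were used without further normalization. Limma is listed, without a version, per the submitters' processing notes. Probe summary and array normalization are steps not given in the sources used here. The table had 0 missing values and 0 columns of no sample.

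Of 45101 probe sets, 64 of them array controls, 34945 had 1 gene in the platform table, 932 had several and 9160 were not named here. An Entrez identifier in the RefSeq table (GRCm38.p6) was found for 34741, and 0 symbols needed updating. A gene was represented by its probe set of highest mean and tested when that lay above its array's median in at least 5 arrays. The 6 group means were estimated in 1 limma model (limma 3.58.1, R 4.3.3) of the 30 arrays, 13 comparisons were taken, and p-values were adjusted by Benjamini-Hochberg over 12998 genes. The script was tested on simulated data. Errors beside log2 differences are standard errors of this model unless marked SD, and intervals are 95% intervals of it. A call is an adjusted p under 0.05.

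Correlations used deviations from group means, with 100000 permutations of arrays within groups, between genes and between genes and marker lists; the relations with lists were added after seeing the data. Alternatives were 10 settings of normalization, filter, probe set choice, weights and covariates, leaving out each array, and 2 sets of arrays left out that were chosen after seeing the data. All 10 genes are named, with every called gene up to 3 per list and treatment comparison and the 10 genes of most similar deviations; called genes of the lists over time, Srgn, Ptprc and C1s1 with their differences, and the pairs and arrays singled out were chosen after their values were seen. The 10 genes and the lists were chosen with earlier results of these data known.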

Additional observations from a re-analysis of the deposited data

Results flagged for a closer look

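In each gene and group of 5 arrays, the highest and lowest array was compared with its neighbours by the gap to the nearest array as a share of the range (Dixon's test). Of the 60 combinations 4 passed, where chance gives about 1 in 20. Adgre1 was 6.666 in anti-CD40L week 16 replicate 4, against 6.815 to 6.87 in the other arrays of the group. Cd68 was 6.515 in anti-CD40L week 8 replicate 3, where the others lay between 7.145 and 7.349. Adgre1 was 7.674 in control week 8 replicate 3, an array of low correlation, where the others lay between 6.753 and 7.015. Ms4a7 was 7.795 in control week 24 replicate 4, where the others lay between 8.61 and 8.914. That array held the lowest control value of Tyrobp, Ctss and Ms4a7 at week 24. Without it the log2 differences at week 24 were -1.15 for Ms4a7 (adjusted p = 0.0131), -1.06 for Tyrobp (adjusted p = 0.00631) and -0.90 for Ctss (adjusted p = 0.0143).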

How the results depend on the processing

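Counts of the 10 genes that passed moved most with the 3' minus 5' difference as a covariate and when the model held only the groups compared. With the covariate, the treatment counts were 0 at week 24 (main count 3; all genes 23 in place of 1229), 0 on average (main count 4; all genes 16 in place of 2051) and 1, Adgre1, at week 16 (main count 0). Over time they were 0 for control week 16 over week 8 (main count 6), 1 for control week 24 over week 8 (main count 5) and 1 for anti-CD40L week 24 over week 16 (main count 0). With only the groups compared, they were 2 at week 16 (Tyrobp and Adgre1), 0 at week 24, 4 for anti-CD40L week 16 over week 8, 2 for anti-CD40L week 24 over week 16, 1 for anti-CD40L week 24 over week 8, 2 for control week 16 over week 8 and 0 for control week 24 over week 8. With array weights, 3 passed at week 16, and 1 for anti-CD40L week 24 over week 16, anti-CD40L week 24 over week 8 and control week 24 over week 16. Csf1r and Ctss lost their calls for control week 16 over week 8 under these weights (adjusted p = 0.077 and 0.0663). With the median over probe sets, C1qb lost both calls in control glands, at week 24 and week 16 over week 8 (adjusted p = 0.138 and 0.0534), Csf1r gained one at week 24 over week 8 (0.43, adjusted p = 0.0412), so that the count of 5 there held other genes, and Ms4a7 lost its call at week 24 (-0.48, adjusted p = 0.0535), its second probe set being below the array's median on all arrays. Csf1r was also the 1 gene for anti-CD40L week 24 over week 16 and over week 8 and for the change between weeks 16 and 24 in the treatment effect. Quantile normalization gave 2 for anti-CD40L week 16 over week 8 and 2 for control week 16 over week 8, and Amy1 as a covariate gave 0 for anti-CD40L week 16 over week 8. Under that covariate Csf1r lost its call for control week 16 over week 8 (adjusted p = 0.0555). Adgre1 gained one there for control week 24 over week 8 (adjusted p = 0.0496).

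Both sets of arrays left out were chosen after seeing the data. Without the 3 arrays of low correlation, 2 passed at week 16, 0 at week 24, 1 on average (Tyrobp), and 1 for anti-CD40L week 24 over week 16 and week 24 over week 8. Without both high control week 16 arrays, 1 passed on average (Tyrobp), and 2 for control week 16 over week 8 and for control week 24 over week 16. Leaving out 1 array gave 0 to 2 at week 16, 0 to 3 at week 24, 3 to 4 on average, 1 to 8 for control week 16 over week 8, 0 to 2 for control week 24 over week 16, 1 to 8 for control week 24 over week 8, 1 to 1 for anti-CD40L week 16 over week 8 and 0 to 0 for the other 6 comparisons. The causes were not tested. No called treatment difference of a gene changed sign under any of these settings, and 17 of 470 treatment differences, none of them called, did.

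The replicate numbers are shared by the groups, but did not pair the arrays: mean correlations of deviations between arrays of the same number were -0.08 to 0.08, the lowest pair had -0.63, and 5 of 30 arrays correlated best with their own number. With the replicate block, the counts were 2 at week 24, 3 on average, 4 for control week 16 over week 8, 5 for control week 24 over week 8 and 1 for anti-CD40L week 16 over week 8; the calls lost were Ctss at week 24, Adgre1 on average, and Csf1r and Ctss for control week 16 over week 8.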
